A study of Homo sapiens with 2 samples.

Results

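The nutrient and energy sensors upstream of mTORC1 are the proteins that tell this growth-promoting kinase complex whether a cell has enough amino acids and energy. They were chosen by gene symbol as the Rag GTPases, Ragulator, the folliculin complex, GATOR1, GATOR2, KICSTOR, the sestrins, the arginine sensor SLC38A9, the energy sensor AMPK and its kinase STK11. Of 32 named genes, 31 had a value among the 16424 genes listed, and SESN3 was not analysed here. PLC/PRF/5, a human hepatoma cell line, was profiled by cap analysis of gene expression (CAGE), a method that reads the first bases of RNAs that carry a cap. The non-treated cells (0 µg/ml) gave 1 library, and the M2BPGi-treated cells, which had 3 µg/ml of this glycan isomer of Mac-2-binding protein for 6 h, gave the other. Both libraries were made from total RNA of cells in dishes, seeded and grown alike. Since each condition had 1 library, the differences carry no replicate error.

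When amino acids are plentiful, Rag GTPases hold mTORC1 at the lysosome surface, where it can be switched on, and Ragulator anchors the Rag GTPases there. GATOR1 turns the Rag GTPases off, KICSTOR brings GATOR1 to the lysosome, and GATOR2 opposes GATOR1. AMPK senses a low energy state and restrains mTORC1, and the liver is a tissue in which this switch between feeding and fasting is well studied.

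The libraries held about 24040210 tags (non-treated) and 24862941 tags (M2BPGi-treated), as read from the steps of the values, of which 94.1% and 94.4% lay on the listed genes. Levels are given in CPM, the tags of a gene scaled to the library total. A CAGE tag marks 1 end per RNA, so levels of different genes can be set side by side without a correction for length. Log2 ratios compare M2BPGi-treated with non-treated cells after 1 CPM was added to both values, which understates the change of low genes. Intervals are 95% Clopper-Pearson intervals of the tag ratio without that addition, and they cover counting error only. The 10 hepatoma markers differed widely in level. KRT18 had 1250 CPM without and 1592 CPM with M2BPGi, KRT8 had 835 and 811 CPM, and AFP had 695 and 566 CPM. GPC3 had 62.5 and 52.2 CPM, HNF4A had 39.1 and 43.8 CPM, and APOB had 15.6 and 11.1 CPM. ALB was low at 8.82 and 7.04 CPM. APOA1 (4.37 and 4.63 CPM) and TTR (3.62 and 2.49 CPM) were as low as the fibroblast marker COL3A1, given below. SERPINA1 had 671 and 455 CPM. Of the 10 hepatoma markers, 3 were higher and 7 lower with M2BPGi, and their summed level was 3585 and 3545 CPM, so the sum hides differences of single markers. The macrophage markers PTPRC and CSF1R were listed at 0 in both libraries, and of the fibroblast markers COL1A1 had 0.67 and 0.76 CPM and COL3A1 had 4.53 and 3.42 CPM.

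All 31 sensor genes had a mean level of at least 1 CPM, the level that 13724 of the listed genes reached. With M2BPGi, 8 of the 31 were at least 1.2-fold higher (25.8%), against 13.0% of the 13724 genes. Another 6 were at least 1.2-fold lower (19.4%), against 24.2% of the genes. Their median log2 ratio was 0.05, with quartiles of -0.13 and 0.26, and that of all genes tested was -0.05. With 5 CPM added in place of 1 CPM, 4 sensor genes were higher and 4 lower by this fold, against 8.95% and 16.0% of the genes. In bulk RNA, fewer cells with a transcript and less of it per cell cannot be told apart. Higher genes made up 57.1% of the calls among the sensors and 35.0% of the calls among all genes, and with all ratios shifted so that the genes tested centred on 0 these shares were 64.3% and 47.6%. With 5 CPM added, 4 of 8 called sensor genes were higher against 35.9% of all calls, and with the filter raised to 10 CPM, 6 of 12 against 38.4%. At 1.5-fold, 0 of 1 was higher against 28.3%. The ratios ran from -0.77 for ITFG2 to 0.40 for RRAGD.

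**Figure D1:**
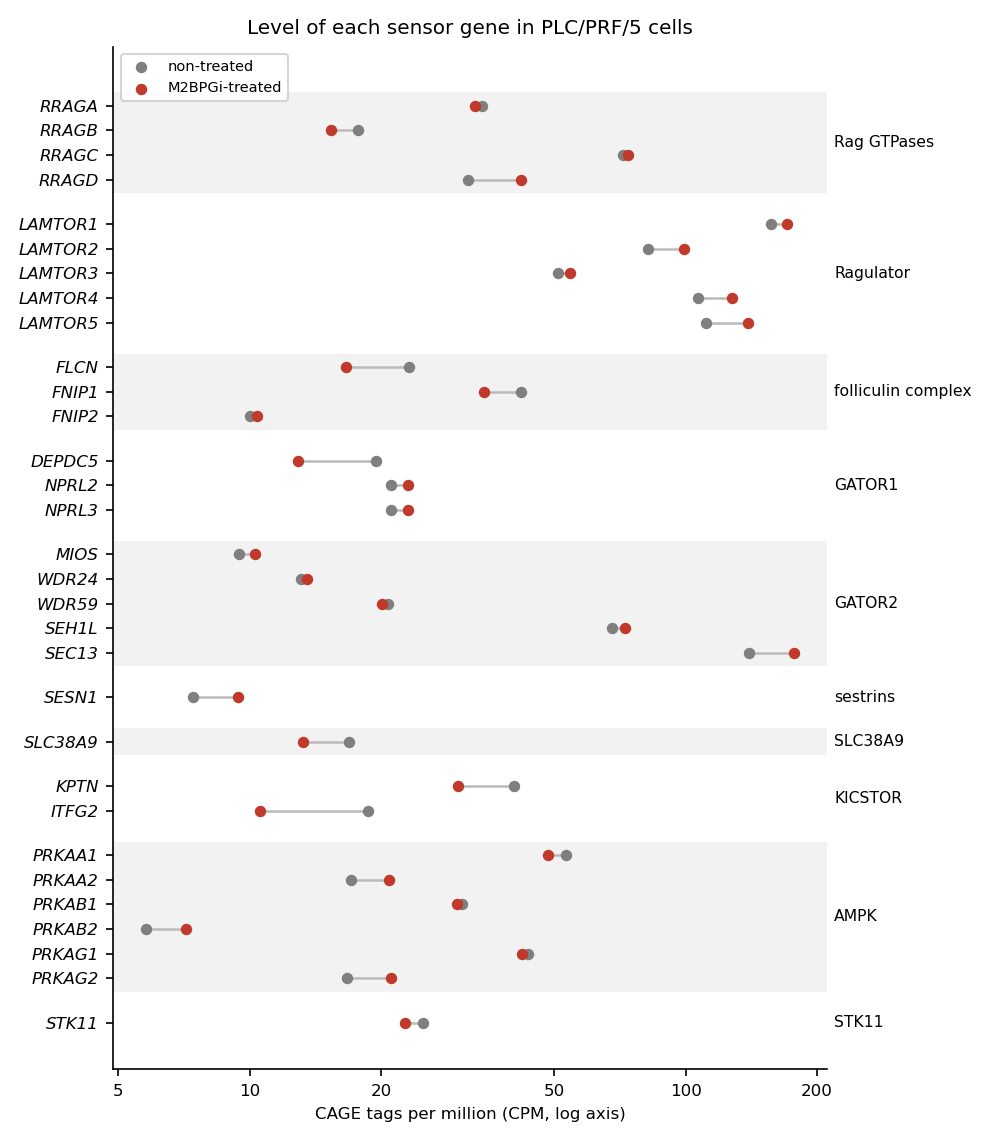
Level of each of the 31 sensor genes in CPM on a log axis, with non-treated cells in grey and M2BPGi-treated cells in red (1 library each), grouped by complex. The 5 Ragulator genes all have the red point to the right, and KPTN and ITFG2 of KICSTOR have it to the left.

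**Figure D2:**
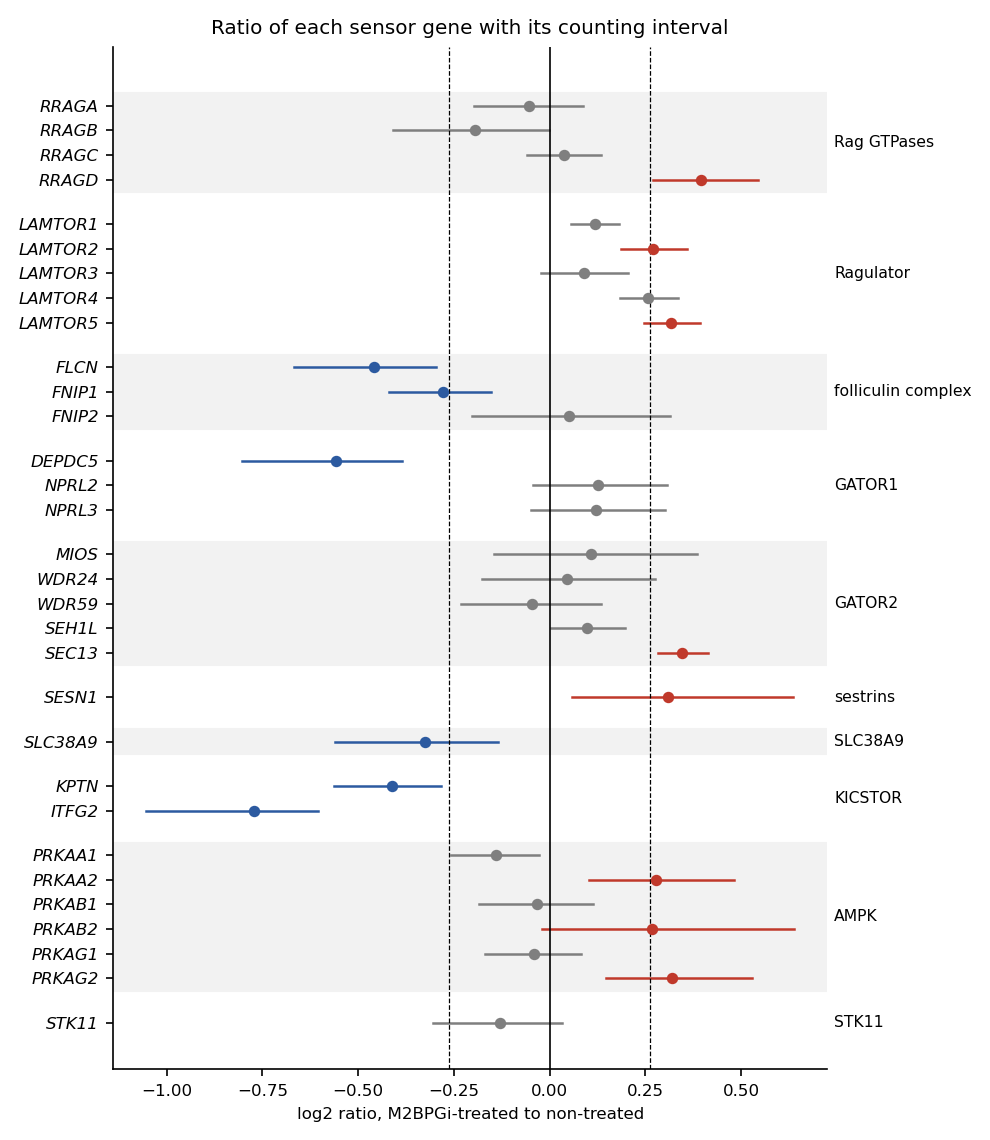
Log2 ratio (M2BPGi-treated over non-treated) for each sensor gene (points, with 1 CPM added) and the 95% counting interval of its tag ratio (bars). Dashed lines mark 1.2-fold, with 8 genes past it on the higher side in red and 6 on the lower side in blue.

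Among the Rag GTPases, RRAGD stood apart from its relatives. A Rag dimer joins RagA or RagB to RagC or RagD, and RRAGD (ENSG00000025039, chromosome 6 from 89364636 to 89412270 in GRCh38) encodes RagD. Its level was 31.7 CPM (761 tags) without and 42.0 CPM (1043 tags) with M2BPGi, a log2 ratio of 0.40 with an interval of 0.27 to 0.54. This was the highest ratio of the sensor genes, above 94.3% of the genes tested. RRAGC, its paralog and the gene with the most tags in the family, had 71.8 and 73.7 CPM. RRAGA had 34.1 and 32.8 CPM. RRAGB was at 17.8 and 15.4 CPM, with an interval that reached from -0.41 to just under 0. The summed level of the 4 genes was 155 CPM without and 164 CPM with M2BPGi.

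Ragulator, the pentamer that tethers the Rag GTPases to the lysosome membrane, had the largest summed level of the complexes. It amounted to 508 CPM without and 591 CPM with M2BPGi, a log2 ratio of 0.22 with an interval of 0.18 to 0.25. All 5 genes had ratios above 0, as did 5881 of the 13724 genes tested, and 2 of the 5 were past 1.2-fold on the higher side, against 13.0% of the genes tested. These calls lay close to the threshold, with 3 of 5 past it after rescaling to a median of 0, 1 of 5 with 5 CPM added and 0 of 5 after correction for mean CPM. The 5 ratios stayed above 0 under each pseudocount, rescaling and correction tried. LAMTOR5 had the largest difference of the 5, with 112 CPM (2681 tags) and 139 CPM (3461 tags), a log2 ratio of 0.32 and an interval of 0.25 to 0.39. LAMTOR2 followed with 82.1 and 99.1 CPM. LAMTOR4, at 107 and 128 CPM, had a log2 ratio of 0.26 and stopped just short of 1.2-fold. LAMTOR1 carries the lipid anchor of the complex and was its most abundant gene, with 157 and 170.4 CPM, while LAMTOR3 was its least abundant, with 51.0 and 54.3 CPM and an interval that included 0. Rows for related loci held few tags. The transcript LAMTOR5-AS1 on the other strand had 0.92 and 1.37 CPM, and the pseudogenes LAMTOR5P1 and LAMTOR3P1 had 1.08 and 0.76 CPM and 0.04 and 0.08 CPM.

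The folliculin complex, which acts on RagC and RagD to put them in the state that binds mTORC1, had a lower summed level, 75.3 CPM without and 61.5 CPM with M2BPGi. FLCN encodes folliculin, the catalytic part. It had 23.3 CPM (559 tags) and 16.7 CPM (414 tags), a log2 ratio of -0.46 with an interval of -0.67 to -0.30. A second row with this symbol, annotated as an overlapping transcript whose start lies 3 bp away, had 23.2 and 16.6 CPM and was not counted. FNIP1, a folliculin partner, was at 42.0 and 34.4 CPM, a log2 ratio of -0.28. Its ratio fell short of 1.2-fold in 4 of 5 alternatives, with -0.25 when 5 CPM was added, -0.24 after correction for mean CPM, -0.23 after rescaling and -0.15 after correction for length. Its paralog FNIP2 was at 10.0 and 10.4 CPM, with an interval from -0.20 to 0.31.

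GATOR1 is the brake on the Rag GTPases, and its 3 genes did not move together. DEPDC5 (ENSG00000100150), the subunit that contacts the Rag dimer, had 19.5 CPM (468 tags) without and 12.9 CPM (321 tags) with M2BPGi. Its log2 ratio was -0.56 with an interval of -0.80 to -0.38, and 4.7% of the genes tested lay lower. NPRL2 and NPRL3, which pair with each other in the complex, had nearly equal levels, with 21.1 CPM each without and 23.1 CPM each with M2BPGi. Their log2 ratios were both 0.12, with intervals that included 0.

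KICSTOR, the scaffold that GATOR1 needs at the lysosome, had both of its measured members lower. KPTN, or kaptin, had 40.3 CPM (969 tags) without and 30.0 CPM (747 tags) with M2BPGi, a log2 ratio of -0.41 with an interval of -0.56 to -0.28. ITFG2 (ENSG00000111203), its partner in the scaffold, had 18.7 CPM (450 tags) and 10.5 CPM (262 tags), a log2 ratio of -0.77 with an interval of -1.05 to -0.61. This was the lowest value of the sensor genes, and 1.5% of the genes tested lay lower. The summed level of the pair was 59.0 and 40.6 CPM. C12orf66, a further subunit of the scaffold named here after its values were seen, had 8.28 and 8.37 CPM, a log2 ratio of 0.01.

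GATOR2 had a summed level of 251 CPM without and 294 CPM with M2BPGi, and most of that difference came from 1 gene. SEC13 (ENSG00000157020), which also serves in the nuclear pore and in the coat of vesicles leaving the endoplasmic reticulum, had 139.6 CPM (3355 tags) and 177.5 CPM (4414 tags). Its log2 ratio was 0.34 with an interval of 0.28 to 0.41. The row of its pseudogene SEC13P1 had 13.0 and 15.4 CPM. SEH1L, likewise shared with the nuclear pore, had 67.6 and 72.5 CPM. The 3 subunits that are not part of the pore lay lower, with MIOS at 9.44 and 10.3 CPM, WDR24 at 13.1 and 13.6 CPM and WDR59 at 20.8 and 20.1 CPM. Each of these 3 had an interval that included 0.

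The amino acid sensors that feed into these complexes differed in direction. SESN1, a sestrin that binds GATOR2 when leucine is scarce, had 7.40 CPM (178 tags) without and 9.41 CPM (234 tags) with M2BPGi. The log2 ratio was 0.31, and at this depth the interval was wide, from 0.06 to 0.64. SESN2, a sestrin placed on the list of other sensors described below, had 15.1 and 16.3 CPM. Its log2 ratio was 0.11, with an interval of -0.09 to 0.32. SLC38A9, a transporter in the lysosome membrane that reports arginine to Ragulator, had 16.9 CPM (406 tags) and 13.3 CPM (330 tags), a log2 ratio of -0.33 with an interval of -0.56 to -0.13. With 5 CPM added, neither SESN1 nor SLC38A9 was past 1.2-fold, at 0.22 and -0.26. SLC38A9 was also short of that fold after correction for mean CPM.

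AMPK is built from a catalytic alpha, a scaffolding beta and a nucleotide-binding gamma subunit, and each of these has paralogs. The summed level of the 6 genes was close in both libraries, with 167 CPM without and 169 CPM with M2BPGi and an interval of -0.04 to 0.09. Within this sum, the less abundant paralog of each subunit was at least 1.2-fold higher, against 13.0% of the genes tested. With 5 CPM added, PRKAG2 alone of these 3 was past that fold, with PRKAA2 at a log2 ratio of 0.23 and PRKAB2 at 0.17. PRKAG2, a gamma subunit, had 16.7 CPM (402 tags) and 21.1 CPM (525 tags), a log2 ratio of 0.32 with an interval of 0.15 to 0.53. PRKAA2, the alpha 2 catalytic subunit, had 17.1 and 20.9 CPM, a log2 ratio of 0.28. PRKAB2, a beta subunit, had 5.78 and 7.16 CPM, a log2 ratio of 0.27 with an interval from -0.02 to 0.64, so this difference was not detectable at this depth. The more abundant paralogs lay below a ratio of 0, although PRKAB1 and PRKAG1 crossed to above 0 when the genes tested were centred on 0. PRKAA1 was at 53.2 and 48.2 CPM (interval -0.26 to -0.03), PRKAB1 had 30.7 and 30.0 CPM, and PRKAG1 had 43.4 and 42.1 CPM. STK11, which encodes the kinase LKB1 that switches AMPK on, had 25.0 and 22.7 CPM, with an interval that included 0.

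The shares of tags within paralog pairs do not depend on how the libraries are scaled. PRKAA2 held 24.3% of the tags of PRKAA1 and PRKAA2 in non-treated cells (interval 22.3% to 26.4%) and 30.2% in M2BPGi-treated cells (28.0% to 32.4%). PRKAG2 held 27.8% (25.5% to 30.2%) and 33.4% (31.1% to 35.8%) of its pair with PRKAG1. RRAGD held 30.6% (28.8% to 32.4%) and 36.3% (34.5% to 38.1%) of its pair with RRAGC. The exact binomial intervals cover counting error only, and shares over paralog pairs outside the sensor genes were not computed. FNIP2 held 19.3% (17.1% to 21.6%) and 23.2% (20.8% to 25.8%) of its pair with FNIP1. PRKAB2 held 15.9% (13.5% to 18.4%) and 19.3% (16.8% to 22.0%), and RRAGB held 34.3% (31.6% to 37.0%) and 32.0% (29.3% to 34.7%).

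**Figure D3:**
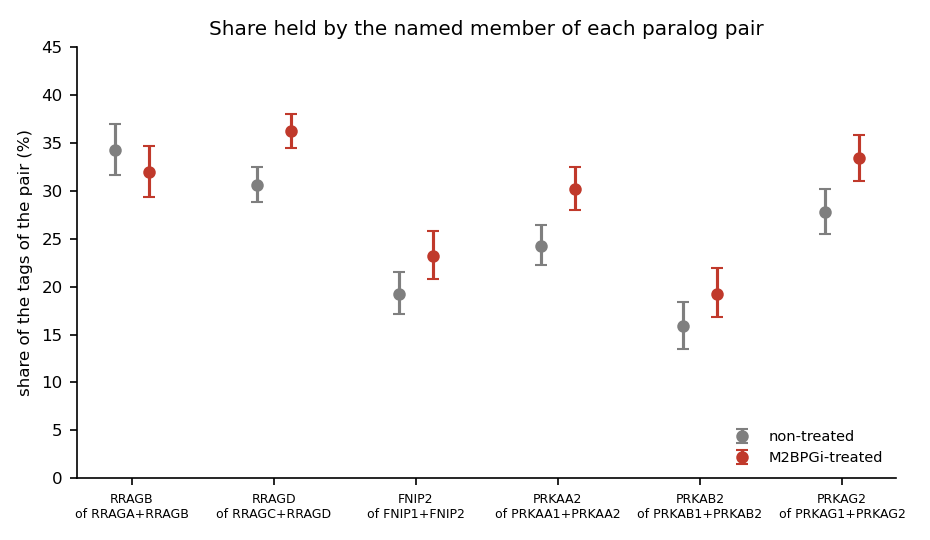
Percent of the tags of each paralog pair that the named gene holds in non-treated (grey) and M2BPGi-treated cells (red), with exact 95% binomial intervals that cover counting error only. PRKAA2 goes from 24.3% to 30.2%, and RRAGB from 34.3% to 32.0%.

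Transcript length was compared next, because longer transcripts had slightly lower ratios across all genes. The Spearman rho between the log2 ratio and the longest annotated transcript was -0.16 across 13271 genes and -0.13 across the 31 sensor genes, all from the same pair of libraries. Ragulator transcripts are short, from 730 nt for LAMTOR4 to 1830 nt for LAMTOR5, except for LAMTOR3 with 4226 nt. Set against the median of genes of like length, LAMTOR5 was 0.30 higher, LAMTOR4 0.26 and LAMTOR1 0.05. The lowest genes were of various lengths, with KPTN at 1691 nt and DEPDC5 at 6479 nt, and ITFG2 lay 0.73 under genes of its length.

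**Figure D4:**
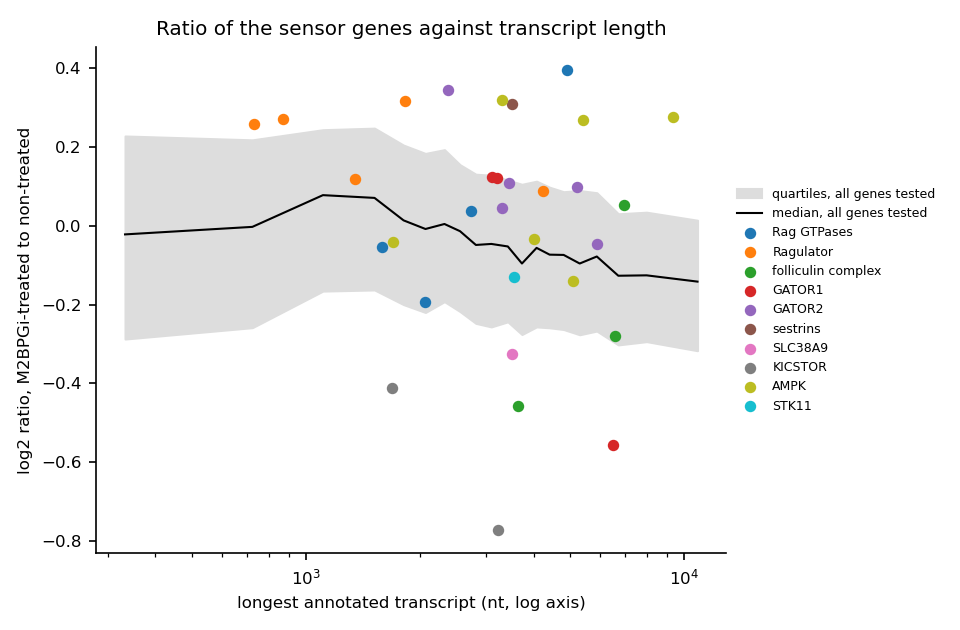
Log2 ratio of each sensor gene against its longest annotated transcript in nt (log axis), colored by complex. The line and the grey band are the median and quartiles of all genes tested in 20 length bins, and ITFG2 with -0.77 lies farthest below the band.

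Promoters were examined next, at the first listed start of each gene and not at starts read from the tags. The GENCODE annotation gives 54 starts for DEPDC5, 17 for SEC13 and 15 for ITFG2. Which of them these cells used was not determined. Of the 31 genes, 28 had an entry in the RefSeq promoter table (GRCh38.p14, 250 bases before to 50 after the start), and RRAGA, RRAGD and WDR24 had none there. Stretches that end before the first annotated exon are shown for the lowest pair, ITFG2 and DEPDC5, and for SEC13, with motif matches in capitals. ITFG2 is on chr12:2812418-2812621, plus strand, DEPDC5 on chr22:31753718-31753866, plus strand, and SEC13 on chr3:10321179-10321362, minus strand.
ITFG2: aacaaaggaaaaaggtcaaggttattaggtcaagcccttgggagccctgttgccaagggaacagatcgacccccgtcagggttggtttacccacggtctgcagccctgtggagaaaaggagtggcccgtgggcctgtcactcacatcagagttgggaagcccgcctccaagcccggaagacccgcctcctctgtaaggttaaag
DEPDC5: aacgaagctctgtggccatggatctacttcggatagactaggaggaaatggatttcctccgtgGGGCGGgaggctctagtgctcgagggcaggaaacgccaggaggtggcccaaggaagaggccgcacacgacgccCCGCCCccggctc
SEC13: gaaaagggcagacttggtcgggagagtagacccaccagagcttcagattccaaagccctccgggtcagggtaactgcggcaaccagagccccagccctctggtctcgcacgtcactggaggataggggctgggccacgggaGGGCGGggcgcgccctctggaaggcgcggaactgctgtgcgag
The capitals in DEPDC5 and SEC13 mark GGGCGG, the SP1 box, on either strand, and the stretch of ITFG2 holds none of the motifs searched, while CCAAT is in its promoter outside this stretch.

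CACGTG, the core of the element bound by the lysosomal regulators TFEB and TFE3, was in 6 of the 28 sensor promoters (21.4%), against 7.43% of 27305 promoters of this length and 10.4% of the 8799 that belong to genes tested. These 6 were RRAGB, RRAGC, LAMTOR1, LAMTOR4, FNIP1 and NPRL3. Their median log2 ratio was 0.08, and that of the other 22 was 0.07. The matches upstream of the start are shown within 30 bases, chosen after the motif was seen, with CACGTG in capitals.
RRAGC, chr1:38859867-38859896, minus strand: aggtgattccggCACGTGacggggcaccac
FNIP1, chr5:131797175-131797204, minus strand: ccccgcccctgcCACGTGacgggacccgcc
FNIP1, chr5:131797094-131797123, minus strand: tccgcgcgccgcCACGTGatgcggcccccc
LAMTOR4, chr7:100148888-100148917, plus strand: gcgcagcggctgcaagCACGTGaccggggc
LAMTOR1, chr11:72103445-72103474, minus strand: ctttccccgcatCACGTGcttgcgtgtacg
RRAGB, chrX:55717622-55717651, plus strand: ctgagccaaggcCACGTGatgatgacagac
RRAGB, chrX:55717712-55717741, plus strand: ggtagcggcagtCACGTGacagactccggg
The longer form TCACGTGA was in RRAGB alone among the 28 (3.6%), against 2.06% of the promoters of genes tested and 1.04% of all.

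The other motifs were also read on both strands, and no difference in motif shares was tested. GGGCGG was in 23 of the 28 promoters (82.1%) and in 71.8% of the promoters of genes tested. CCAAT was in 10 (35.7% and 37.4%). AAGATGGC, bound by YY1, was in KPTN, PRKAA1 and STK11 (10.7% and 5.96%). CCGGAAGT, the ETS site, was in SEC13 and NPRL2 (7.1% and 9.65%), and TATAAA was in LAMTOR3 alone (3.6% and 5.03%). GCATGCGC (NRF1) and TGACGTCA (CRE) were in 0 of 28, against 5.97% and 3.44% of the promoters of genes tested. Over all 27305 promoters, the shares were 44.6% for GGGCGG, 35.7% for CCAAT, 3.03% for AAGATGGC, 4.44% for CCGGAAGT, 12% for TATAAA, 3.27% for GCATGCGC and 1.98% for TGACGTCA. Of the motifs searched, CACGTG lies within TCACGTGA. The promoters had a median G and C content of 67.5%, and that of genes tested was 65.7%.

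The surrounding pathway was described from lists of genes that sit beside these sensors, with the same background of 13.0% higher and 24.2% lower. Of 10 other sensor and KICSTOR genes, 0 were at least 1.2-fold higher and 2 lower, with a median of -0.07. SAR1B, a leucine sensor, was highest (56.6 and 66.04 CPM, log2 ratio 0.22), and RNF167, a ubiquitin ligase, was lowest (82.7 and 61.6 CPM, -0.42). Of 7 partners of LKB1 and kinases of AMPK, 0 were higher and 1 lower, with STRADA highest (13.6 and 14.6 CPM, 0.10) and CAB39L lowest (5.82 and 4.26 CPM, -0.37). Of 11 AMPK-related kinases, 1 was higher and 0 lower, with MARK4 highest (15.0 and 18.5 CPM, 0.29) and BRSK1 lowest (2.0 and 1.53 CPM, -0.25).

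Of 13 AMPK substrates, 1 was higher and 3 lower (23.1%), with a median of -0.14. FOXO3, a transcription factor, was highest (3.45 and 5.59 CPM, log2 ratio 0.57). TBC1D4 and TXNIP were listed at 0 in both libraries. Amino acid transporters had the lowest median of the lists, -0.20, with 1 of 13 higher and 6 lower (46.2%). SLC7A1, an arginine and lysine transporter, was highest (20.9 and 25.5 CPM, 0.27), and SLC38A2, a glutamine and alanine transporter, was lowest (532 and 362 CPM, -0.55).

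The proton pump V-ATPase, which passes the amino acid signal to Ragulator, had 1 of 18 subunits higher and 5 lower, with a median of -0.06. ATP6V1F was highest (201.5 and 243 CPM, log2 ratio 0.27) and ATP6V1G2 lowest (5.41 and 2.09 CPM, -1.05), and ATP6V0D2 was listed at 0 in both libraries. Of 9 genes for MiT/TFE factors and lysosome positioning, 2 were higher and 0 lower, with a median of 0.12. SNAPIN, a subunit of the complex that moves lysosomes outward, was highest (22.6 and 40.7 CPM, 0.82), and TFE3 was lowest (57.4 and 51.3 CPM, -0.16).

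**Figure D5:**
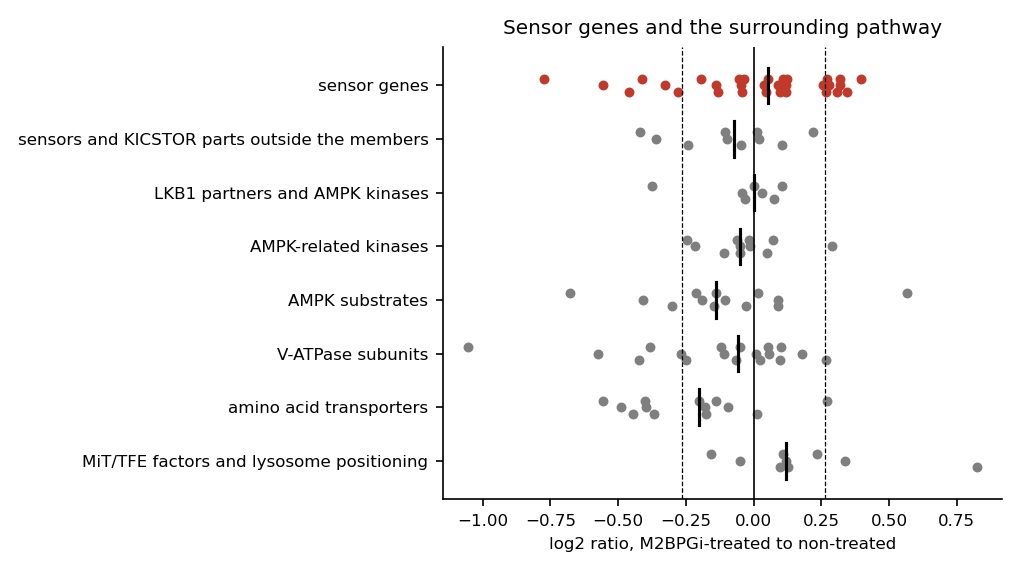
Log2 ratio (M2BPGi-treated over non-treated) for the sensor genes (red) and for the genes of 7 lists around them (grey), with the median of each as a black bar and dashed lines at 1.2-fold. Amino acid transporters have the lowest median, -0.20, and SNAPIN is the far right point at 0.82.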

How the data were processed

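Per the labels and the study's methods, CAGE tags were mapped with BWA, with HISAT2 and build hg19 also named in the submitters' processing notes. The methods name a mouse genome, although the identifiers are human. The rule that placed tags on genes is not given in the sources used here. The authors deposited CPM rounded to 2 decimals. Of the values above 0, 100% lay within 0.0051 CPM of a multiple of the CPM of 1 tag (0.0416 non-treated, 0.0402 M2BPGi-treated), which gave the tags used for intervals and paralog shares only. A level of 3 tags is 0.125 and 0.121 CPM.

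Log2 ratios had a pseudocount of 1 CPM and a filter of mean CPM of at least 1. A gene was called past 1.2-fold. Full values are given for the 5 highest and 5 lowest sensor genes, and the highest and lowest gene of each list is named, except 1 gene that is not reported here. Members and lists were chosen with earlier results of these data known. Positions and transcript lengths come from GENCODE 29 (GRCh38), and near-identical copies from BLAST+ 2.17.0 (first 500 nt, at least 100 nt at 95% identity). Protein sequences were not used here. Calculations were tested on simulated data. Python 3.11.15, scipy 1.17.1 and pandas 2.3.3 were used.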

Additional observations from a re-analysis of the deposited data

How the results depend on the processing

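Each condition had 1 library, so none can be left out, and the intervals cover counting error only. No paired analysis was possible because each group has 1 library. At 1.2-fold, 8 sensor genes were higher and 6 lower, against 13.0% and 24.2% of the genes tested. The counts were 9 and 5 after rescaling to a median of 0 (genes 17.4% and 19.2%), 8 and 5 after correction for length (15.6% and 18.9%), and 6 and 4 after correction for mean CPM (15.8% and 18.6%). They were 4 and 4 with 5 CPM added (8.95% and 16.0%), and 6 and 6 of 28 with the filter raised to 10 CPM (13.2% and 21.1%). They stayed at 8 and 6 with 0.1 CPM added (14.4% and 26.7%) and with no filter (11.5% and 21.5%). At 1.1-fold they were 9 and 8 (25.2% and 38.4%), and at 1.5-fold 0 and 1 (1.60% and 4.04%). The median log2 ratio ran from 0.04 to 0.10. Of 31 genes, 27 kept their direction under the other pseudocounts, the rescaling and the corrections for transcript length and mean CPM, and PRKAB1, PRKAG1, RRAGA and WDR59, all near 0, did not. LAMTOR1 moved to 0.05 with the correction for length and to 0.04 with that for mean CPM, and SEC13 to 0.26 with the latter. Chosen after the data were seen, a rescaling to a median of 0 gave summed ratios of 0.27 for Ragulator, 0.28 for GATOR2 and 0.16 for all sensor genes. Adding the SEC13P1 tags gave 0.23 for GATOR2, and both FLCN rows gave -0.33 for the folliculin complex. The FLCN rows had nearly equal tags (559 and 557 non-treated, 414 and 413 M2BPGi-treated), so that sum may count the same tags in both rows. PRKAB1 and SEH1L share a stretch of at least 100 nt with other transcripts, and since neither is past 1.2-fold, leaving them out could not change the counts of 8 and 6. A test on tags and a rescaling by trimmed means were planned and not run. The rounded CPM values did not pass the check for use as tag counts, although they lay within rounding of whole tags. Genes with few tags, such as PRKAB2 and SESN1, have the widest intervals.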

Other observations

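Of the sensor genes, 7 have an annotated start within 1000 bp of that of a listed gene on the other strand, with 8 such neighbors in all. PRKAA2 starts 21 bp from PPAP2B, which encodes a lipid phosphate phosphatase. PPAP2B had 78.1 CPM without and 47.2 CPM with M2BPGi, a log2 ratio of -0.71, while PRKAA2 had 0.28. NPRL2 overlaps CYB561D2, whose start is 396 bp away. CYB561D2 had 44.0 and 29.2 CPM, a log2 ratio of -0.58, against 0.12 for NPRL2. SESN1 starts 291 bp from CEP57L1, and here both genes were higher, with CEP57L1 at 4.91 and 8.61 CPM, a log2 ratio of 0.70. PRKAB2 starts 194 bp from PDIA3P, at 7.40 and 4.95 CPM, a log2 ratio of -0.50, and 636 bp from RP11-337C18.8, with a log2 ratio of 0.13. The other 3 neighbors had log2 ratios of -0.13 (RP4-816N1.6, 280 bp from ITFG2), -0.23 (RP5-864K19.4, 177 bp from RRAGC) and -0.19 (UBQLN4, 958 bp from LAMTOR2). These neighbors were named after their values were seen, distances come from the annotation, and whether tags were assigned by strand is not given in the sources used here.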
